A study of Drosophila melanogaster with 2 samples.

Results

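The 10 genes described here are hth, exd, tsh, tio, ss, dan, danr, Sp1, btd and ct of Drosophila melanogaster, which encode transcription factors that set the identity of the proximal leg and of the antenna. They were chosen by name, from 13945 protein-coding genes on the main chromosome arms, and all 10 were found in the gene models. Binding was measured by chromatin immunoprecipitation and sequencing (ChIP-seq) in whole pupae with an antibody against GFP, in 2 biological replicates of 1 group. The pupae were transgenic for an rn-eGFP fusion of Rotund (rn), a zinc finger transcription factor, and the labels do not say what drives it. Their pupal stage is labelled unknown, no sex was recorded, and control libraries were not analysed here. Whole animals mix every tissue, so a peak gives no cell type, and fewer cells with a bound site cannot be told apart from weaker binding in each cell.

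Limb identity along the proximodistal axis is set by transcription factors expressed in nested domains of the leg and antennal discs. Homothorax and its partner Extradenticle act proximally, Spineless and the Distal antenna proteins act in the antenna, and Rotund is known for its role in the tarsal segments and in the antenna. Many of these genes are controlled by enhancers that lie far from the promoter, so peaks were collected from each gene body and from 20 kb on each side.

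Called peaks stood at hth, ct, btd, dan and tsh, and none stood at exd, tio, ss, danr or Sp1. The strongest lay at the edge of the ct window, upstream of ct and upstream of btd. A called peak is here a peak of the set thresholded by the authors over both replicates at an irreproducible discovery rate (IDR) of 0.01. The IDR estimates the chance that a peak does not recur between paired calls. Among all protein-coding genes 69.2% had a called peak under the same 20 kb rule, so 5 of 10 is not a high share.

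The sequences around 9 of the summits are given first, because they show that called peaks at these genes differ widely in base composition. Each is the summit base with 50 bases on each side, read from the plus strand of the Release 6 genome. Capitals mark runs that hold AAAAAAA, the letters of TTAAAA, the homeodomain core TAATTA and the GAGA core GAGAG on either strand. They describe letters and not bound sites. The 9 are not the strongest peaks. The ct peak at 237 bp and the dan peak had signals of 68.5 and 76.8, below the median of 79.7 of all called peaks. Peaks of 106 in the ct window and 102 upstream of btd are not shown.
ct, 3754 bp upstream of the gene start, chrX:7604624-7604724: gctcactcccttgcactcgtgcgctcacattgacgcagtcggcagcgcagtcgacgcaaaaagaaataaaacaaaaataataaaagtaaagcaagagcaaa
ct, 2566 bp upstream, chrX:7605812-7605912: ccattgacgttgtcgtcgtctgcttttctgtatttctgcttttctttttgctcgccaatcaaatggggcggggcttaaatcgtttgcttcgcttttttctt
ct, 237 bp upstream, chrX:7608141-7608241: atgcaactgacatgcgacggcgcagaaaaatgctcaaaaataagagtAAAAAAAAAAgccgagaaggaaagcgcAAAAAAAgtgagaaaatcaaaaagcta
ct window, intron of CHES-1-like, chrX:7698342-7698442: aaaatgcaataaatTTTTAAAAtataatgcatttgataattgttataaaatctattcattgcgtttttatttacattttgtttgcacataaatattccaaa
btd, 6389 bp upstream, chrX:9687747-9687847: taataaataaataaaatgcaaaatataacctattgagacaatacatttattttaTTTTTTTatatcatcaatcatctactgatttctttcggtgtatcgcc
btd, 179 bp upstream, chrX:9693957-9694057: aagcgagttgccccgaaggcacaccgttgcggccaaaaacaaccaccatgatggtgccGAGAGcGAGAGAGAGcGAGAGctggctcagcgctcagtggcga
hth, 22471 bp into the gene, chr3R:10617047-10617147: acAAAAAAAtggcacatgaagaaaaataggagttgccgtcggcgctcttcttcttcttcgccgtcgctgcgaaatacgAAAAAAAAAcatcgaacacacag
hth, 103604 bp into the gene, chr3R:10535914-10536014: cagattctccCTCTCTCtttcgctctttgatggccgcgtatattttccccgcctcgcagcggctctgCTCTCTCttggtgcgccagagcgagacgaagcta
dan, 5708 bp upstream, chr3R:25178625-25178725: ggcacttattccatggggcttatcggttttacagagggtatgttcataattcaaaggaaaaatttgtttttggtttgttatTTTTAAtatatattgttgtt
The summits inside CHES-1-like and at -6389 bp of btd each had 19.6% G and C in the central 51 bp. The btd promoter summit and the hth summit 103604 bp into the gene each had 56.9%.

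**Figure D1:**
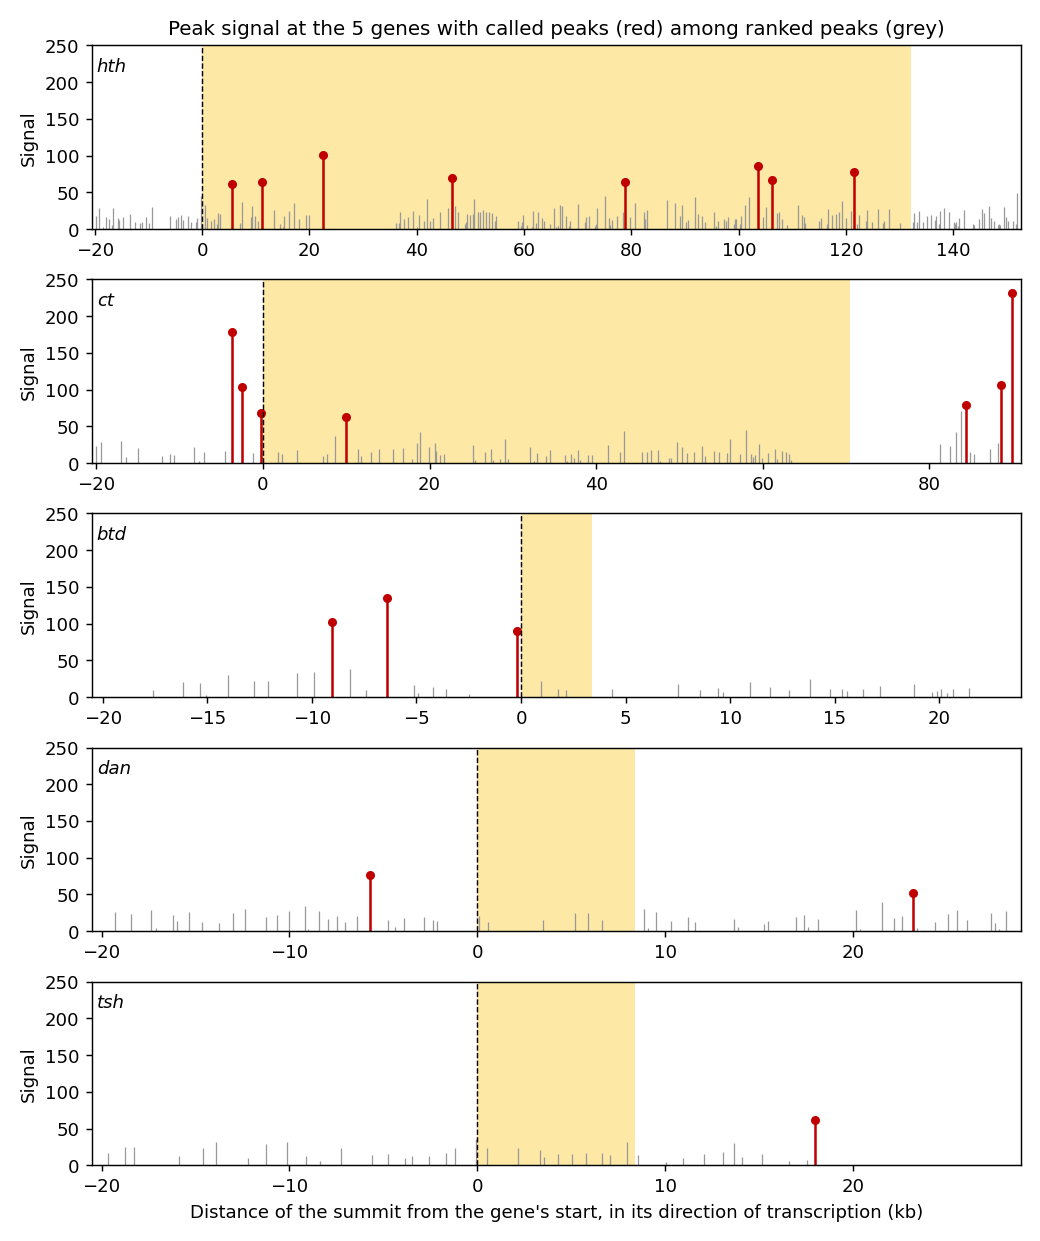
Deposited signal value of ranked peaks (vertical axis) against the distance of the summit from the gene's start in kb. The genes are hth, ct, btd, dan and tsh. Red stems with dots are called peaks, grey stems are ranked peaks that were not called, yellow marks the gene body and the dashed line its start. The 8 hth peaks lie inside the gene, while 6 of 7 ct peaks and all 3 btd peaks lie outside the gene body.

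Homothorax is a TALE homeodomain protein that brings Extradenticle into the nucleus. Its gene (FBgn0001235, chr3R:10507561-10639568, minus strand, 132 kb) held 8 called peaks, all inside introns. Only 165 protein-coding genes, 1.18% of all, had 8 or more in their windows, but the hth window of 172 kb is itself long. Called peaks stood there at 46.5 per Mb, where the chromosome arms as a whole had 28.2. The 8 signals ranged from 61.0 to 100.8 with a median of 68.3, below the 79.7 of all called peaks.

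The strongest hth peak (chr3R:10616949-10617244, signal 100.8, rank 1271 of 3774) had signals of 64.2 in replicate 1 and 30.7 in replicate 2. It lay 22.5 kb into the gene, in an intron of 24.8 kb that is the first of the longest transcript covering it, and 2821 bp upstream of an internal hth start. The same intron held the peaks nearest the gene's start, at 5.51 kb and 11.1 kb. Their signals were 61.0 (36.8 and 28.3 in replicates 1 and 2) and 64.6 (34.9 and 28.0).

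The other 5 hth peaks were spread over introns 4, 7, 8, 9 and 11 of the longest transcript covering them, which has 13 introns. It differs from the transcript with 7 introns whose first intron held the 3 peaks above. The distances of these 5 peaks from the gene's start were 46.5, 78.8, 104, 106 and 122 kb. Intron 8 held the second strongest, chr3R:10535816-10536111, with a signal of 86.5 and replicate values of 48.0 and 36.3. Intron 11 held a peak of 78.0 (46.4 and 33.6) and intron 4 a peak of 69.6 (29.6 and 38.9). Introns 9 and 7 held peaks of 67.0 (26.0 and 43.1) and 64.5 (31.4 and 32.8). Replicate 1 was thus the higher at 5 of the 8 hth peaks and replicate 2 at 3. Over all called peaks with a value in both replicates, replicate 1 was the higher at 61.9%.

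None of the 8 hth peaks was in the thresholded sets of both single replicates. The replicate 1 set alone held 4, the replicate 2 set alone held 3, and 1 was in neither. The replicate 1 set had 1 further peak in hth, at chr3R:10588748-10589027, with a signal of 35.9. Its score was 782 in the ranked list over both replicates, against the threshold of 830. The hth promoter itself had only a ranked peak, 220 bp upstream of the start, with a signal of 44.8 (25.5 and 18.8 in replicates 1 and 2) and an IDR of 0.105. For 7 of the 8 called peaks hth was the protein-coding gene with the nearest start. With non-coding starts included this held for 2, since the microRNA gene mir-4944 was nearest for 4 peaks and asRNA:CR44018 for 2.

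Extradenticle, the PBC homeodomain partner of Homothorax, had no called peak at its gene (FBgn0000611, chrX:15992468-15996509). The ranked list holds all scored peaks, called or not, and it had 11 peaks in the exd window, all outside the gene body. Those 11 in a window of 44.0 kb were the sparsest of the 10 genes, since the other 9 ranged from 52.6 to 130 per 100 kb and the arms had 94.3. The nearest lay 11.9 kb from the exd start. The strongest had a signal of 33.8 and an IDR of 0.355, and it stood 125 bp from the start of the odorant receptor gene Or13a. In the single replicates the strongest ranked signals there were 21.2 and 16.2.

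Teashirt and Tiptop are related zinc finger proteins of the trunk and proximal limb. At tsh (FBgn0003866, chr2L:21828593-21837011) the only called peak lay 9573 bp beyond the gene's end, at chr2L:21846436-21846731, in intergenic sequence. Its signal was 61.0, rank 2757, with 24.6 in replicate 1 and 41.8 in replicate 2, and the replicate 1 set did not hold it. The tsh promoter carried a ranked peak 64 bp upstream of the start, with a signal of 36.4 and an IDR of 0.217. This had a signal of 27.7 in replicate 1 and no overlapping ranked peak in replicate 2. At tio (FBgn0028979, chr2L:22019208-22025734) no peak was called. The strongest of its 28 ranked peaks had a signal of 31.6 and an IDR of 0.623, 10.1 kb from the nearest tio start. The tio maxima in replicates 1 and 2 were 19.0 and 18.9.

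Spineless is the bHLH-PAS factor that specifies distal antenna. Its gene (FBgn0003513, chr3R:16374434-16403690) had 90 ranked peaks in its window, 130 per 100 kb, and none was called. The strongest, with a signal of 41.5 (23.3 and 14.8 in replicates 1 and 2) and an IDR of 0.0909 in the list over both replicates, stood 155 bp from the start of the neighbouring gene js. The strongest peaks of ss in the single replicates, at 23.3 and 25.9, were different peaks. The ss window was thus dense in ranked peaks, with none above 41.5 in the list over both replicates.

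Distal antenna (dan) and Distal antenna-related (danr) encode nuclear proteins with Pipsqueak motifs that act in antennal identity. At dan (FBgn0039286, chr3R:25184383-25192806) 2 peaks were called. The stronger, chr3R:25178527-25178822, lay 5708 bp upstream of dan in an intron of lobo. Its signal was 76.8, with 39.8 and 39.3 in replicates 1 and 2, and it was called in both single-replicate sets. The weaker, of 52.1 (37.7 and 24.6), lay 684 bp downstream of a start of the receptor tyrosine kinase gene Cad96Ca, and only the replicate 1 set held it. The conservative set listed an additional peak there with a signal of 5.01. It overlaps the Cad96Ca peak and need not be a separate site.

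At danr (FBgn0039283, chr3R:25138072-25139903) no peak was called, and the ranked peak nearest to its start lay 11.5 kb away. The strongest of its 22 ranked peaks stood 31 bp from the start of vig2, at a signal of 46.0 and an IDR of 0.0284. Replicate 1 gave 21.2 there and replicate 2 gave 27.2. Its score of 642 was the second highest among the genes without a called peak. In the ranked list that gave the conservative set the same peak scored 709.

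Buttonhead and Sp1 are related Sp family zinc finger proteins needed for leg growth. At btd (FBgn0000233, chrX:9694186-9697558) 3 peaks were called, all upstream of the gene, which gave 69.2 per Mb of window. The promoter peak chrX:9693859-9694154, with its summit 179 bp upstream of the start, had a signal of 89.5. Replicate 1 gave 52.6 and replicate 2 gave 34.5, and only the replicate 1 set held it. The strongest, chrX:9687649-9687944, lay 6389 bp upstream with a signal of 135 (rank 761), and the replicates were nearly level at 66.6 and 69.1. The third, with 102 (53.5 and 49.4), lay 9021 bp upstream.

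The pair of btd peaks farther from the gene are closer to nej, which encodes the CREB-binding protein coactivator. The summit of the stronger was 731 bp upstream of a nej start, and 392 bp upstream of a start of lncRNA:CR42657. That of the other was 502 bp downstream of a different nej start. Both peaks were in each single-replicate set. All 3 btd peaks passed an IDR of 0.001. At Sp1 (FBgn0020378, chrX:9729648-9756369) no peak was called among 74 ranked peaks. The strongest lay in an intron 9.01 kb from an Sp1 start, with a signal of 47.8 and a score of 762. That score was the highest among the 5 genes without a called peak and corresponds to an IDR of 0.0146. Replicate 1 gave 34.3 there and replicate 2 only 9.22, and in the ranked list behind the conservative set the same peak scored 49.

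**Figure D2:**
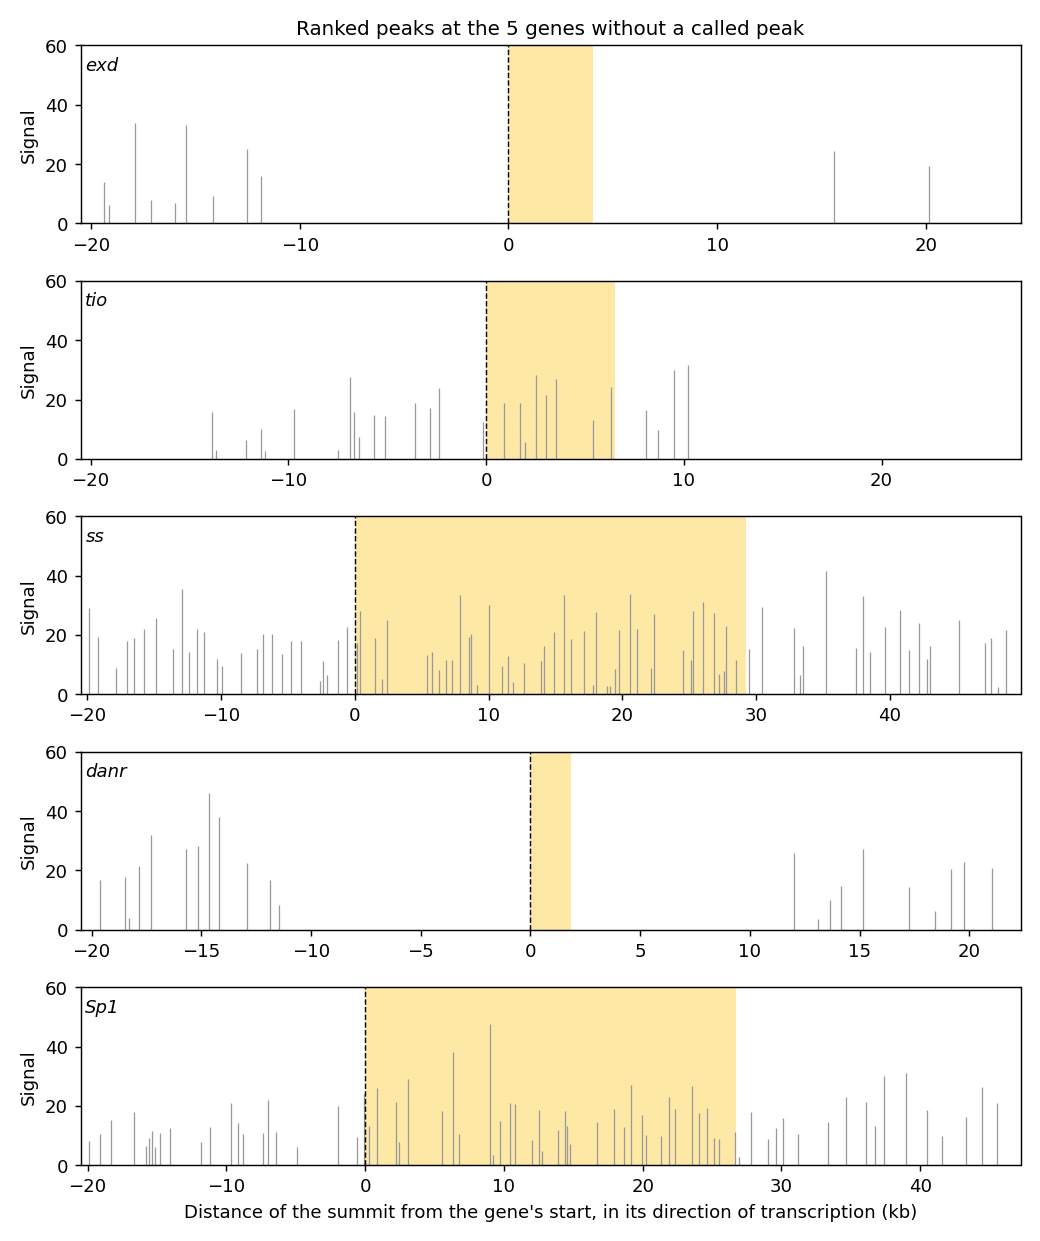
Signal of ranked peaks (vertical axis) against the distance of the summit from the gene's start in kb, for exd, tio, ss, danr and Sp1; yellow marks the gene body and the dashed line its start. No stem exceeds 47.8, and no ranked peak stands inside exd or danr.

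Within each of the related pairs dan and danr, btd and Sp1, and tsh and tio, only the first gene had called peaks in its 20 kb window. The counts were 2 and 0, 3 and 0, and 1 and 0. These differences were not tested, and the strongest ranked signals of each pair were 76.8 and 46.0, 135 and 47.8, and 61.0 and 31.6. They also depend on the window, since dan and danr, and btd and Sp1, are neighbours. With 50 kb on each side danr had 1 called peak, the one 5708 bp upstream of dan. Sp1 then had 4, which include the 3 btd peaks, and tio still had none. In the gene body alone none of these genes had a called peak. Counting only peaks nearest to a transcript start of the gene itself left dan with 1, btd with 1 and tsh with 0. The peak of 135 lay nearest to a start of lncRNA:CR42657.

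Cut is a homeodomain protein of the antenna, of external sensory organs and of the wing margin. Its gene (FBgn0004198, chrX:7608428-7678859, 70.4 kb) had 7 called peaks in its window, in groups at each end. Upstream stood 3 peaks. The farthest, chrX:7604526-7604821, lay 3754 bp before the start with a signal of 178 (rank 446). The next, 2566 bp before the start, had 103, and the promoter peak at 237 bp had 68.5. Inside the gene a single peak of 62.6 lay 9.93 kb from the start, in the first intron of 36.2 kb, and replicates 1 and 2 gave 31.6 and 30.7 there.

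The 3 peaks upstream of ct were much higher in replicate 1 than in replicate 2. The values were 135 and 43.7 at 3754 bp, 73.7 and 26.3 at 2566 bp, and 52.1 and 13.9 at 237 bp. These are ratios of 3.09, 2.80 and 3.75, where the median ratio of all called peaks with a value in both replicates was 1.11 (quartiles 0.882 and 1.43). Of those 3702 peaks, 98.7%, 98.0% and 99.3% had a lower ratio. The signal value is not scaled between lists, so a ratio is read here only against that of all peaks. The promoter peak was absent from the conservative set, and in the ranked list behind that set its score was 82.

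Beyond the 3′ end of ct, 3 peaks lay in or at the forkhead gene CHES-1-like, 14.0 to 19.5 kb from the end of ct. The outermost, chrX:7698356-7698480, was the strongest in any of the 10 windows, at 232 (rank 247), where replicates 1 and 2 gave 142 and 89.7. The middle peak, 367 bp upstream of a CHES-1-like start, had 106 (48.1 and 61.7), and the innermost had 79.7 (44.8 and 35.3). Their ratios of replicate 1 to replicate 2 were 1.58, 0.779 and 1.27. For these 3 peaks CHES-1-like and not ct was the gene with the nearest start. The conservative set had 1 more peak beside them, at chrX:7692057-7692352, with a signal of 70.7 and a score of 750 in the ranked list of the set over both replicates. Inside ct the replicate 2 set had a further peak, at chrX:7637235-7637514, with 37.3, and replicate 1 had no overlapping ranked peak.

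**Figure D3:**
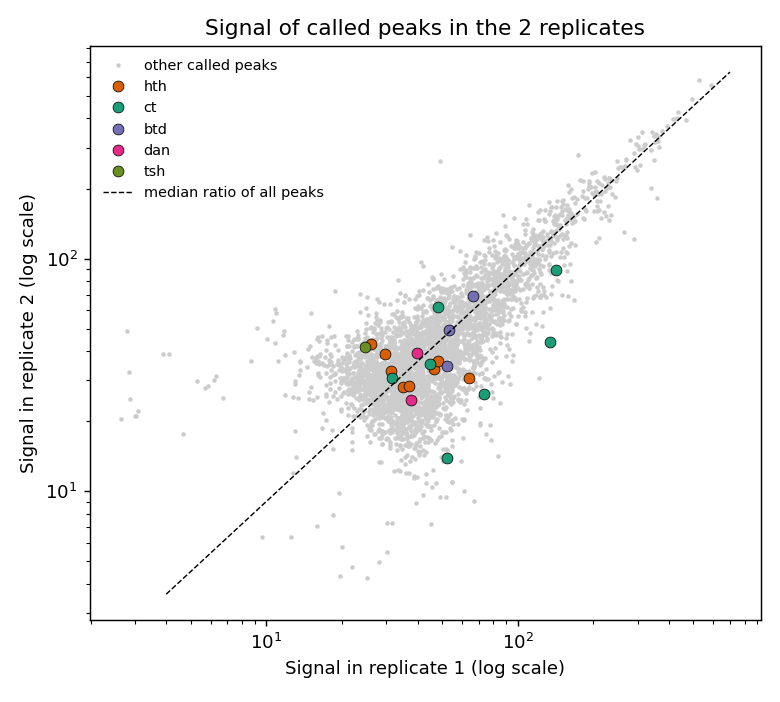
Signal of each called peak in replicate 1 (horizontal, log scale) and replicate 2 (vertical, log scale); grey points are other called peaks, coloured points the peaks of hth, ct, btd, dan and tsh, and the dashed line is the median ratio of 1.11. The 3 ct peaks farthest below the line are those upstream of the gene, with ratios of 2.80 to 3.75.

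Over the 10 genes 21 distinct peaks were called. Their windows covered 0.683 Mb after merging, so the density was 30.7 per Mb against 28.2 on the arms. In the conservative set 5 of 10 genes had a peak (68.2% of all protein-coding genes), in the replicate 1 set 4 (57.1%) and in the replicate 2 set 5 (54.4%). At an IDR of 0.001 it was 4 (54.8%). Counting the gene body alone, only hth and ct had a peak, 2 of 10 against 9.97%. These are long genes, of 132 and 70.4 kb, and the body-only share of long genes was not computed. With 5, 10 and 50 kb on each side the genes with a peak numbered 3, 5 and 8, against 37.1%, 51.7% and 87.8%. Of protein-coding genes of 20 kb or longer, 76.0% had a called peak within 20 kb, which leaves hth and ct among the majority and ss and Sp1 in the minority of long genes.

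**Figure D4:**
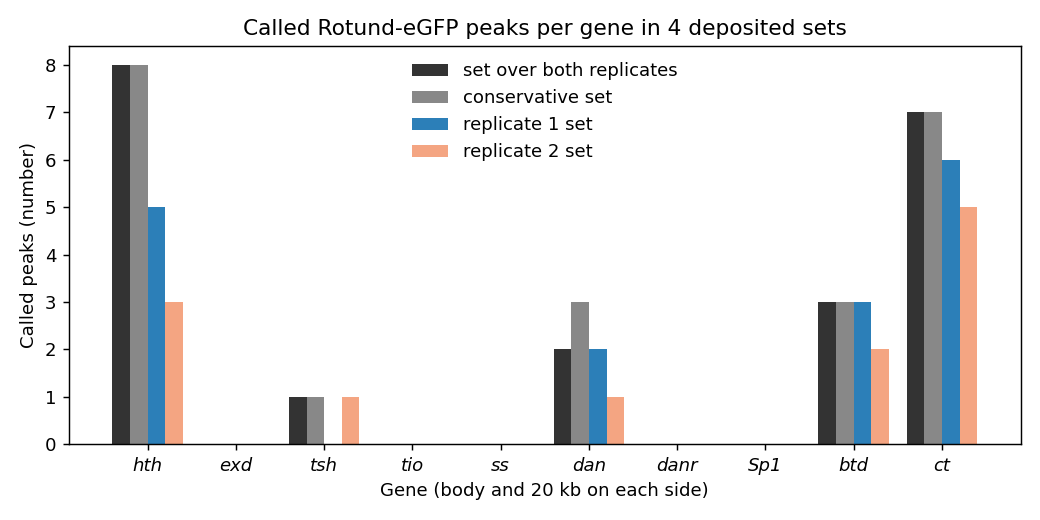
Number of called peaks (vertical axis) in the body and 20 kb on each side of each of the 10 genes, with a bar for the set over both replicates, the conservative set and each single replicate's set. Peaks were listed for hth, dan, btd and ct in all 4 sets, tsh had none in the replicate 1 set, and the other 5 genes had none in any.

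The 21 peaks had a median signal of 78.0, with 46.4 in replicate 1 and 35.3 in replicate 2. Over all called peaks the medians were 79.7, 43.6 and 38.4. Both single-replicate sets held 6 of the 21, or 28.6% (95% exact binomial interval 11.3 to 52.2), against 41.5% of all called peaks. Exactly 1 of the single-replicate sets held 13, or 61.9% (38.4 to 81.9), against 31.2%. Neither held 2, or 9.52% (1.17 to 30.4), against 27.2%. Such intervals cover counting error over peaks only, and neighbouring peaks of a gene are not independent.

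Introns held 14 of the 21 summits, 66.7% (43.0 to 85.4), against 42.8% of all called peaks. Promoters, taken as 500 bp on each side of a transcript start, held 4, or 19.0% (5.45 to 41.9), against 38.5%. These were the ct and btd promoters, the CHES-1-like start and the start of lncRNA:CR42657 next to nej. Intergenic sequence held the remaining 3, and no summit lay in an exon. All 8 hth peaks are in the intron class, so a single gene supplies most of that share.

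Letters at the summits were compared with those in all called peaks and in flanks of equal width 500 bp to either side. AAAAAAA stood in 6 of the 21 windows reaching 50 bp to each side, 28.6% (11.3 to 52.2), against 17.7% of all called peaks. It stood in 26.2% of the flanks of these 21 peaks, which lies inside that interval, and in 10.2% of the flanks of all called peaks. The 6 were 3 of hth, 2 of btd and the ct promoter, where the run shown in capitals above is adenine on the plus strand. TTAAAA, found in both dan peaks and in 7 of 21 windows (33.3%), was near the 30.4% of all called peaks. Its share was 19.0% in the flanks of the 21 peaks and 15.1% in those of all called peaks.

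GAGAG, the core bound by GAGA factor, stood in 5 windows, or 23.8% (8.22 to 47.2), against 11.4% of all called peaks. In flanks its share was 9.52% for the 21 peaks and 13.7% for all called peaks. It occurs 5 times, with overlaps, in the btd promoter sequence printed above, and also stood in 3 hth peaks and in the tsh peak. The homeodomain core TAATTA stood in 1 window, against 8.90% of all called peaks, and CACACA in 1, against 6.89%. The Homothorax core TGACAG stood in none of the 21, an exact binomial upper bound of 16.1%, and in 2.36% of all called peaks. The composite letters of Extradenticle with a Hox protein stood in 2, or 9.52%, against 7.66% of all called peaks. The DNA replication-related element stood in none, against 0.768%. The central 51 bp held 37.8% ± 10.9 G and C (SD, 21 peaks), against 34.3% ± 12.1 (SD, 3774 peaks).

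**Figure D5:**
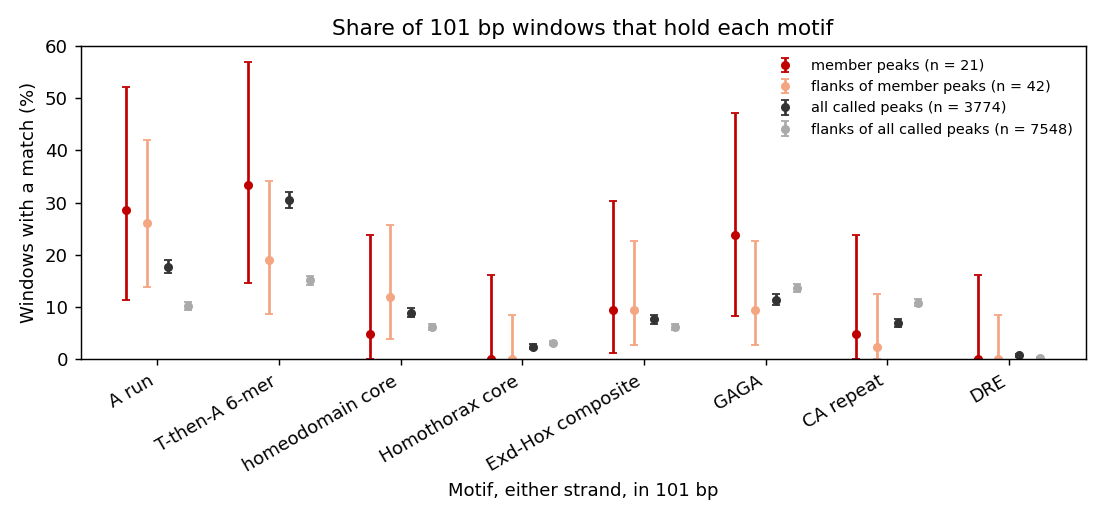
Share of windows (50 bp on each side of the centre) with each set of letters on either strand (vertical axis, %), at the 21 summits, in their flanks, at all 3774 called summits and in their flanks; points are shares and bars are 95% exact binomial intervals. The intervals of the 21 summits are wide and overlap those of all called peaks for each of the 8 motifs.

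Of 22 other genes of the leg and antenna network, 19 had a called peak under the same 20 kb rule, against the 69.2% of all protein-coding genes. The 3 without were al, B-H1 and disco. The 4 with the strongest peak were the BMP ligand gene dpp (signal 304, with 164 and 142 in the replicates), the homeobox gene C15 (237, with 114 and 120), the Runx gene lz (194, with 134 and 61.6) and the BTB gene bab1 (175, with 84.5 and 86.5). Of these, the dpp peak had dpp as its nearest protein-coding start, and the others lay nearer to sp3, c12.1 and CG9205. All 4 signals exceeded the 135 of btd, and the strongest in the ct window (232) lay between those of C15 and lz.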

How the data were processed

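ChIP-seq of Rotund-eGFP was deposited for 2 replicates as 8 peak lists on dm6, per the labels. Neither the aligner nor the caller is named in the labels or notes. The signal is the signal value deposited for each peak and is not scaled between lists. The score deposited by the authors is the IDR rescaled to at most 1000, where 830 corresponds to an IDR of 0.01, and the ranked lists also give the −log10 of the IDR, at most 5, as deposited. The files hold no reads, so the depth of each library is unknown, and the replicates are labelled as separate biological samples.

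Peaks went to a gene when the summit lay in its body or within 20 kb, using Ensembl release 115 models (BDGP 6.54) without transposable elements. All 10 genes had the same start and end in RefSeq. Replicate values are those of the overlapping peak (at least 1 bp) with the nearest summit in that replicate's ranked list. Motifs were sought on both strands in the summit base and 50 bp on each side of the Release 6 sequence. With 1 group no test between conditions was possible, so values are descriptive. Intervals are exact binomial at 95%. The counting and motif functions were tested on simulated data.

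The genes, motifs and lists were chosen with earlier results of these data known. The rule for named genes took all 10, the genes holding or nearest to their called peaks, and the 4 network genes with the strongest peaks; genes near uncalled peaks and 3 network genes without peaks were named after their values were seen. Other settings tried were the authors' conservative set, single-replicate sets, a stricter IDR of 0.001, other gene windows, promoter widths, overlaps and motif widths, the nearest start and RefSeq models. Calculations used pandas 2.3.3 with numpy 2.4.6 under Python 3.11.15; scipy 1.17.1 gave the intervals and matplotlib 3.10.9 the plots.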

Additional observations from a re-analysis of the deposited data

How the results depend on the processing

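Of 30 alternative values for the counts over all 10 genes, 19 stayed within 1.5 times the reported value. Without either replicate the genes with a called peak numbered 4 to 5 and the distinct peaks 12 to 16. The density was 17.6 to 23.4 per Mb, and the 12 and 17.6 came from replicate 2 alone. The arms as a whole also fell, from 28.2 per Mb to 17.7 in the replicate 1 set and 15.8 in the replicate 2 set. At an IDR of 0.001 the 10 genes had 12 peaks and 17.6 per Mb, and the density of the arms at that IDR is not given here. Counting the gene body alone left 2 genes and 9 peaks, 5 kb gave 3 genes and 13 peaks, and 50 kb gave 8 genes and 43 peaks, which follows from the width. With promoters of 250 bp 2 summits were at promoters. When each peak went only to its nearest transcript start, coding or not, 4 of the 10 genes had a called peak. The counts were then 4 at ct, 2 at hth, 1 at dan, 1 at btd and 0 at tsh. Among single genes, tsh had no called peak without replicate 2 or at an IDR of 0.001, hth had 3 without replicate 1 and 3 at that IDR, and dan had 1 without replicate 1 and 1 at that IDR. Motif shares moved with the width of the window. In 51 bp AAAAAAA stood in 14.3% of the 21 windows, as did the letters TTAAAA and the GAGA core, and neither the homeodomain core nor CACACA stood in any. With 100 bp on each side AAAAAAA stood in 52.4%, GAGAG in 42.9%, CACACA and the Extradenticle composite each in 23.8% and TGACAG in 9.52%; shares of all called peaks at these widths were not computed. Read depth is unknown, so an uncalled gene is one where no peak passed, not one shown to be unbound.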

Other observations

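Further called peaks lay 20 to 50 kb from several of the genes. The ct window closed within a run of called peaks in CHES-1-like, with 6 more at 20.9 to 30.3 kb beyond the end of ct. The strongest of those, chrX:7706902-7707074, had a signal of 299 and replicate values of 157 and 149. Upstream of hth, a peak of 106 (66.3 and 40.2) lay 25.5 kb before the gene's start. Its nearest protein-coding start was that of CG6465, at 12138 bp.

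The antennal gene ss had its nearest called peaks at 37.2 and 39.4 kb from its body, with signals of 78.0 (40.3 and 36.4) and 93.6 (55.5 and 43.1). The first stood 1267 bp from a start of Sulf1 and the second 77 bp from a start of CG14882. A strong peak of 418 (207 and 216), chr3R:16449283-16449461, stood 45.7 kb away and 4444 bp from the nearest protein-coding start, that of the kinase gene Pak3. A peak of 184 (103 and 81.0) lay 33.6 kb before tsh, 499 bp from the start of CG31612. Within 50 kb of btd, peaks of 264, 126 and 280 stood at starts of the phosphatase gene Ptpmeg2. Sp1 had a peak of 55.0 (29.1 and 24.0) at 22.3 kb from its end, 80 bp from a start of CG1354.

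Gaps of over 10 kb between successive ranked peaks of the list over both replicates occurred in 4 of the windows. The longest in each was 27.5 kb around exd, 23.5 kb around danr, 17.8 kb in the ct window and 13.6 kb in that of hth. In the single replicates' ranked lists the longest gaps were 26.5 and 26.6 kb at exd and 26.6 and 23.7 kb at danr, 17.6 and 20.2 kb at ct, and 6.12 and 14.5 kb at hth, where replicate 1 thus had no gap of over 10 kb. Neither read coverage nor mappability was analysed here, and their part in these gaps was not tested.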
